A study of Mus musculus with 33 samples.

Results

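The 9 genes described here serve to make GABA and load it into vesicles in the cortex or mark the neurons that do so, and they were taken by symbol (Gad1, Gad2, Slc32a1, Pvalb, Lhx6, Dlx1, Dlx2, Reln and Erbb4) from 21565 genes measured in 33 RNA-seq libraries of mouse frontal cortex. All 9 were in the table. The libraries came from adult male mice on a C57BL/6J background. Wild-type (WT) mice gave 6 libraries of control sleep (CS, undisturbed sleep), 7 of sleep deprivation (SD, 6 h on a treadmill) and 7 of recovery sleep (RS, a shorter deprivation followed by 2 h of sleep). Mef2c f/f mice, which carry loxP sites in both Mef2c alleles and no Cre, gave 4 CS and 3 SD libraries. Mef2c-cKO mice, which carry the same floxed alleles and a Camk2a-Cre transgene, gave 3 CS and 3 SD libraries. Camk2a-Cre acts in excitatory neurons of the forebrain, so the interneurons that express the genes described here are not its main target, although the study's methods state that some cKO mice carried a recombined allele in all cells.

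GABA, the main inhibitory transmitter of the cortex, is made from glutamate by the glutamate decarboxylases encoded by Gad1 and Gad2, and the vesicular transporter encoded by Slc32a1 loads it into synaptic vesicles. Cortical interneurons arise in the ventral forebrain, where Dlx1 and Dlx2 (homeobox factors) and then Lhx6 (a LIM homeobox factor of the medial ganglionic eminence) direct their formation. Pvalb encodes the calcium buffer parvalbumin of fast-spiking interneurons. Reln encodes reelin, a secreted glycoprotein that interneurons make in the adult cortex, and Erbb4 encodes a neuregulin receptor found mainly on interneurons. In bulk tissue, fewer cells of a type and less RNA per cell cannot be told apart.

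The recovered depth was 18935045 to 249046089 reads per library. Excitatory neuron markers were all detected in every library (11 of 11, summed level 1561 to 2392 rescaled CPM). Reads of Mef2c, the targeted gene, gave 957 to 1727 rescaled CPM in cKO CS against 1080 to 1207 in f/f CS, and a total over the gene does not check the loss of the floxed exon. Markers of 2 neighbouring regions were present and uneven. The summed level of 4 markers of olfactory bulb projection neurons (Eomes, Tbx21, Cdhr1 and Doc2g) was 21.3 to 59.9 in the 6 cKO libraries and 1.71 to 3.75 in f/f SD. It was also high in f/f CS replicate 3 (42.4, against 2.51 to 8.70 in the other 3), WT SD replicate 9 (57.0, against 6.94 to 13.6), WT RS replicate 3 (22.3) and WT CS replicate 4 (19.4). Eomes was at 0 in 1 library of f/f CS and in 1 of f/f SD. The 9 measured markers of striatal medium spiny neurons summed to 537 to 1617, and none was at 0. These libraries stand apart before any comparison. Calls in WT mice are given with and without the high WT libraries, and that of Dlx1 in CS with and without f/f CS replicate 3. All 6 cKO libraries were high, so no comparison of the genotypes could leave them out.

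Upstream sequences are shown for the members that moved furthest and in opposite directions, Slc32a1 and Erbb4 in WT mice and Dlx2 and Pvalb between genotypes. All 9 members matched RefSeq promoters, with 12 windows. Each sequence is the 250 bases before a RefSeq gene start (GRCm38.p6, 5′ to 3′ on the gene's strand), at chr2:158610508-158610757 (+) for Slc32a1, chr1:69108060-69108309 (−) for Erbb4, chr2:71546755-71547004 (−) for Dlx2 and chr15:78206401-78206650 (−) for the upstream start of Pvalb. Capitals mark every match to the motifs searched, on both strands.
Slc32a1: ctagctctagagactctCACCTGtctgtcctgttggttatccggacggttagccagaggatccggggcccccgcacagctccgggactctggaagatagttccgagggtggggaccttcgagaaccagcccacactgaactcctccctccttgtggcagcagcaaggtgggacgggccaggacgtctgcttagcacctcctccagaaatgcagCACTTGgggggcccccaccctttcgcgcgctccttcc
Erbb4: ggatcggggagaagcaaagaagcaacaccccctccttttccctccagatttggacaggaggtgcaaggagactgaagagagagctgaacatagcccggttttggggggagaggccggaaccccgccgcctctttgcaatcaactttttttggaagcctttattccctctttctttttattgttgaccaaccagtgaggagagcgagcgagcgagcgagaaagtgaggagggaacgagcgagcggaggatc
Dlx2: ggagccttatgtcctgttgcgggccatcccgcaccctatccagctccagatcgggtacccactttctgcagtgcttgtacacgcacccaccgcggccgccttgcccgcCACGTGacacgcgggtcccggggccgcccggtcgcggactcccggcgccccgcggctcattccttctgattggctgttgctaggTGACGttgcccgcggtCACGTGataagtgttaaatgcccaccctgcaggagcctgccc
Pvalb: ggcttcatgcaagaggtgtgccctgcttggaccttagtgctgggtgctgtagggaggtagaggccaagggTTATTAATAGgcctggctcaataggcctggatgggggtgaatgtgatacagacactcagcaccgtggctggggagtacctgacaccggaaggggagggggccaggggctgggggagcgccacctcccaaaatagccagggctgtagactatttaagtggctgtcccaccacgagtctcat
The motifs were the E-box CANNTG, the homeodomain core TAATTA, the cyclic AMP response element half-site TGACG, the TATA box TATAAA and the MEF2 consensus. They were held by 66.2%, 4.84%, 17.8%, 12.4% and 2.92% of 32851 RefSeq promoter windows of the same length. The Slc32a1 window held E-boxes starting 233 and 37 bases before the start. The Dlx2 window held a pair of CACGTG E-boxes, 142 and 42 bases before the start, and a TGACG half-site 58 bases before it. The Pvalb window held 1 MEF2 consensus match, TTATTAATAG, 180 bases before the start, and no other member's window held one. No motif of the 5 was found in the Erbb4 window. These windows were 54.0% (Erbb4) to 66.4% (Dlx2) G and C, against a median of 52.4% over all windows. A match describes letters and not a bound site.

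**Figure D1:**
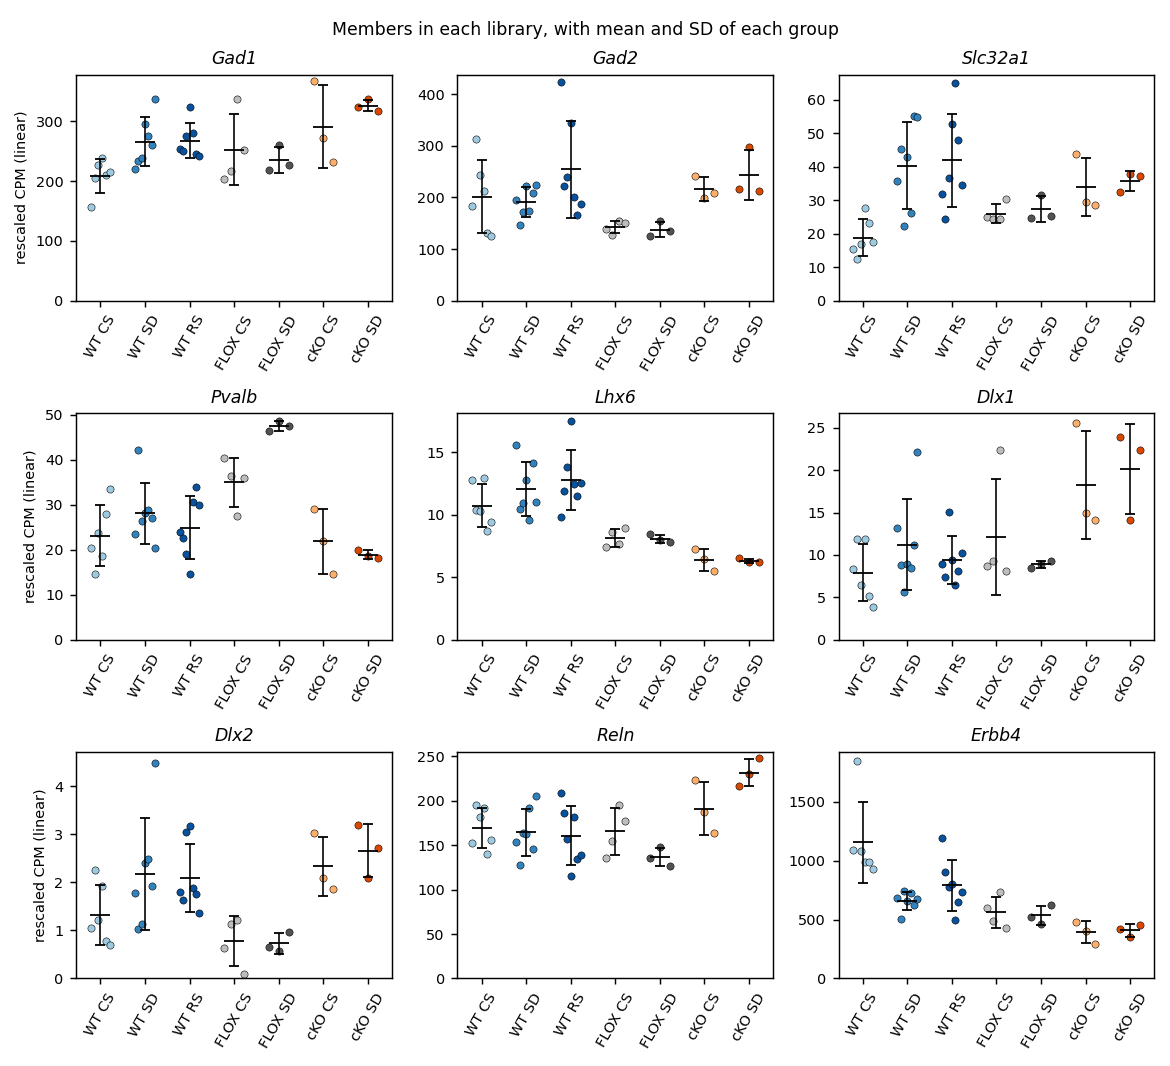
Level of each of the 9 genes in each of the 33 libraries (points, rescaled CPM on a linear axis from 0) by genotype and sleep group (FLOX is f/f), with the group mean and SD (bars). Slc32a1 is higher in WT SD and RS than in WT CS, Erbb4 is lower in WT SD, and in SD every cKO library lies on one side of every f/f library for all 9 genes.

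Levels are given as rescaled CPM, which are the deposited CPM (reads scaled to library size) divided by a scaling factor of each library. WT columns summed to less than those of the other genotypes, so levels of WT and floxed mice were not compared by a test. Calls needed 2 criteria in limma, a log2 fold change of 0.3 or more in size and a p of 0.05 or less after Benjamini-Hochberg adjustment, and an interaction was called on the adjusted p alone. Log2 fold changes are on the log2(rescaled CPM + 0.5) scale and understate the changes of low genes such as Dlx2.

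The first question was whether sleep loss changed GABA genes in WT cortex. After 6 h of SD, 3 of 9 genes were called against 45.1% of all 12913 genes tested. Gad1 and Slc32a1 rose and Erbb4 fell, where 24.6% of all genes were called higher and 20.5% lower. The median log2 fold change of the 9 genes was 0.29, and that of all genes 0.04. Rescaling set that zero: with the CPM as deposited, the median of all genes was 0.30 and 7 members were called, with Pvalb, Lhx6, Dlx1 and Dlx2 added on the higher side. Over all genes that setting called 6907 against 5826, of which 3984 were shared.

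Slc32a1 (ENSMUSG00000037771, chr2:158610767-158615748, + strand, GRCm38), the vesicular GABA transporter gene, was the member with the largest rise. Its level in WT CS went from 12.4 to 27.6 rescaled CPM (median 17.2, n = 6), in SD from 22.3 to 55.3 (median 42.9, n = 7) and in RS from 24.5 to 64.9 (median 36.7, n = 7). The ranges of CS and SD overlapped, with 2 SD libraries (replicates 3 and 6) below the highest CS library. The means were 18.8 ± 5.53 in CS and 40.4 ± 12.9 in SD (SD), a log2 fold change of 1.06 ± 0.23 (SE, adjusted p = 0.0033). In RS the mean was 41.9 ± 14.0, and the log2 fold change from the same CS libraries was 1.11 ± 0.22 (adjusted p = 0.033).

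Gad1 (chr2:70553072-70602014, + strand), the gene of the decarboxylase that supplies most cortical GABA, rose less. WT CS libraries had 157 to 239 rescaled CPM (median 213), SD libraries 220 to 337 (median 260) and RS libraries 241 to 324 (median 253). CS and SD overlapped, while every RS library was above every CS library. The log2 fold change was 0.34 ± 0.12 in SD (adjusted p = 0.024) and 0.36 ± 0.10 in RS (adjusted p = 0.039). The SD call was lost without WT CS replicate 1 (0.26, adjusted p = 0.056) and without WT SD replicate 9 (0.28, adjusted p = 0.049, under the fold required). Gad2 (chr2:22622205-22693874, + strand), the gene of the decarboxylase found at axon terminals, had 126 to 313 in CS (median 198), 147 to 224 in SD (median 195) and 166 to 423 in RS (median 221). All 3 groups overlapped, and its log2 fold changes of -0.02 ± 0.19 (SD) and 0.34 ± 0.25 (RS) were not called (adjusted p = 0.95 and 0.28).

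Erbb4 (chr1:68032186-69108059, − strand) fell in SD. Whether reads in introns were counted is not given in the sources used here, so the levels of genes that span as much of the genome as Erbb4 and Nrg3, named further on, cannot be read as those of spliced RNA alone. Its 6 CS libraries had 931 to 1844 rescaled CPM (median 1037), its 7 SD libraries 508 to 745 (median 672) and its 7 RS libraries 496 to 1192 (median 776). No SD library reached the lowest CS library, and non-overlap of that kind was found in 15.1% of all genes. The log2 fold change was -0.78 ± 0.15 in SD (adjusted p = 0.0018). In RS it was -0.55 ± 0.19 and was not called (adjusted p = 0.055). WT CS replicate 2 was far above the other CS libraries, and without it the value in SD was -0.63 (adjusted p = 0.00048).

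The interneuron markers and transcription factor genes were not called in WT mice. Pvalb (chr15:78191114-78206400, − strand) had 14.5 to 33.4 in CS (median 22.04), 20.3 to 42.1 in SD (median 27.1) and 14.5 to 33.9 in RS (median 23.9). Lhx6 (chr2:36081953-36105408, − strand) had 8.67 to 12.9 (median 10.3), 9.59 to 15.6 (median 11.01) and 9.78 to 17.5 (median 12.5). Their log2 fold changes in SD, 0.29 ± 0.18 and 0.16 ± 0.13, were not called (adjusted p = 0.19 and 0.30). The paired homeobox genes Dlx1 (chr2:71528113-71533981, + strand) and Dlx2 (chr2:71543408-71546754, − strand) lie next to each other. Dlx1 had 3.88 to 11.8 in CS, 5.67 to 22.2 in SD and 6.45 to 15.1 in RS, and an antisense gene overlaps it whose reads cannot be told apart unless the counting used strand, which is not given in the sources used here. Dlx2 had 0.70 to 2.25 in CS, 1.02 to 4.49 in SD and 1.36 to 3.17 in RS. For both genes the highest WT library was SD replicate 9, the WT library with the highest olfactory bulb markers. Neither was called in SD (0.47 ± 0.29 for Dlx1 and 0.52 ± 0.27 for Dlx2, adjusted p = 0.18 and 0.11). Reln (chr5:21884454-22344702, − strand) had medians of 169, 162 and 157 in CS, SD and RS and log2 fold changes of -0.05 ± 0.12 and -0.09 ± 0.13 (adjusted p = 0.73 and 0.585).

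**Figure D2:**
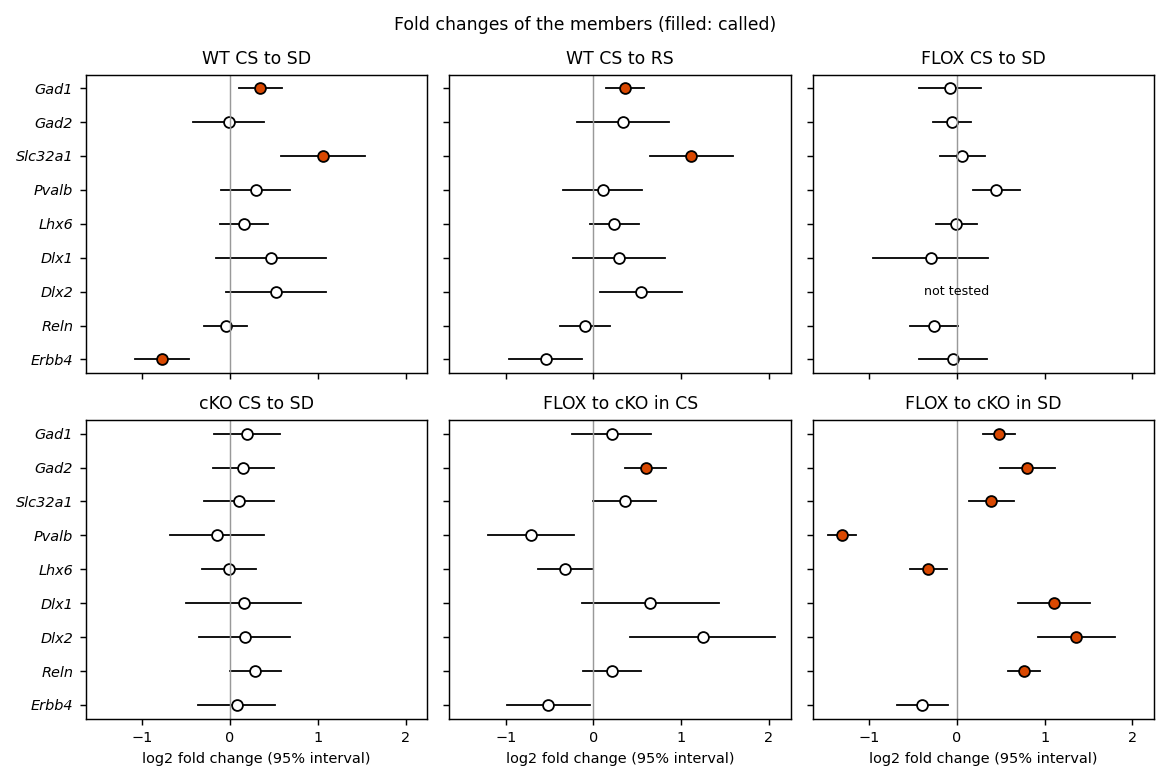
Log2 fold change of each gene with its 95% interval in 6 comparisons, filled where called. In WT mice Gad1 and Slc32a1 are filled on the higher side in SD and RS and Erbb4 on the lower side in SD, none is filled in SD against CS in f/f or cKO, and 8 are filled between f/f and cKO in SD.

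In RS, 2 of 9 genes were called (Gad1 and Slc32a1, both higher) against 17.5% of 12752 genes, or 9.28% on the higher side. Non-overlap, seen for Gad1, held for 3.72% of all genes. Both calls were lost without any 1 of 7 libraries (WT CS replicates 2 and 3 and WT RS replicates 3, 4, 5, 6 and 12), and that of Gad1 also without WT CS replicate 1, at adjusted p of 0.050 to 0.081 and log2 fold changes of 0.28 to 0.38 for Gad1 and 0.998 to 1.15 for Slc32a1. In those 7 fits the calls over all genes fell to between 0 and 98, from 2232, so the loss was not particular to these genes. Erbb4 was called without WT CS replicate 6 or WT RS replicate 1 or 2 (-0.60, -0.65 and -0.59, adjusted p = 0.046, 0.023 and 0.0495), where 3366, 3740 and 3108 genes were called in all. SD and RS were both set against the same 6 CS libraries. Between SD and RS directly, limma called 0 of 9 genes (0 at an unadjusted p of 0.05, 0 by edgeR and 0 by DESeq2), against 0.0232% of all genes, and the largest difference was 0.35 ± 0.18 for Gad2 (95% interval -0.03 to 0.73).

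In WT mice the fold changes over all genes ran with base composition, and the members at both ends of the range of GC content were those with the largest changes. Slc32a1, with 61.9% G and C in its exons, had the largest rise, and Erbb4, with 40.6%, the fall. Across all genes the log2 fold change of SD had a Spearman rho of 0.72 with GC content and -0.56 with the span of the gene on the chromosome, and genes are not independent replicates. Erbb4 spans 1076 kb and Slc32a1 4.98 kb, against a median of 18.8 kb. With the trend on GC content and exon length removed, Slc32a1 had 0.41 in SD (adjusted p = 0.060) and Erbb4 -0.26 (adjusted p = 0.011, under the fold required), so that neither was called. Gad1, with 47.3% G and C, had 0.41 and was still called (adjusted p = 0.018). In RS, Gad1 (0.42, adjusted p = 0.034) and Slc32a1 (0.57, adjusted p = 0.032) were both called after the same step.

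**Figure D3:**
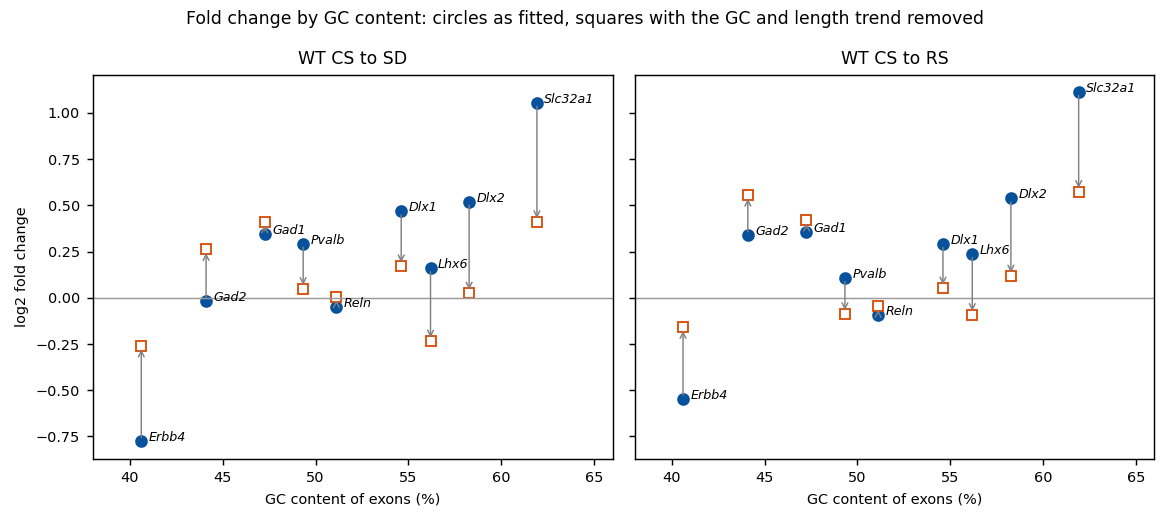
Log2 fold change of the 9 genes in WT SD and WT RS relative to CS against the GC content of their exons in percent, as fitted (circles) and with the trend on GC content and exon length removed (squares). Slc32a1 goes from 1.06 to 0.41 and Erbb4 from -0.78 to -0.26 in SD, while Gad1 goes from 0.34 to 0.41.

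Contents of neighbouring regions were followed beside these values. Of the 9 striatal markers, 4 were called higher in WT SD and 5 in RS, although their summed level overlapped (651 to 1591 in CS, 803 to 1603 in SD and 925 to 1617 in RS). Pde10a was the largest part of this sum in every group of the series. Its WT median was 933 in CS, beside 1380 for the sum, and 700 in SD. A term built on this sum therefore follows Pde10a most and cannot stand for the markers that were called higher. Fitted over the 3 WT groups with the striatal sum as a term, Gad1, Slc32a1 and Erbb4 kept log2 fold changes of 0.36, 1.06 and -0.77 in SD and all 3 were called. With the olfactory bulb sum as a term, Slc32a1 and Erbb4 had 0.95 and -0.79 and were called, Gad1 had 0.24, under the fold required, and Pvalb was called at 0.50 (adjusted p = 0.025). Dlx1 and Dlx2 had 0.15 and 0.18 with that term. These terms were chosen after the data were seen. Without the library of each group highest in olfactory bulb markers, the same 3 members were called in SD.

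In Mef2c f/f mice, SD called none of the 8 members tested, where 0.0403% of 12410 genes were called. Dlx2 was below 1 CPM in a library of each group and was not tested. At an unadjusted p of 0.05 limma gave 1 member, edgeR called 0 and DESeq2 1, in both cases Pvalb. The 4 CS libraries had 40.3, 36.3, 27.4 and 35.9 rescaled CPM of Pvalb, and the 3 SD libraries had 46.3, 48.5 and 47.6. The groups did not overlap (17.4% of all genes), with a log2 fold change of 0.45 ± 0.12 (adjusted p = 0.14). Slc32a1, which rose in WT SD, had 25.1, 24.3, 24.5 and 30.3 in f/f CS and 24.7, 31.7 and 25.5 in f/f SD. Erbb4 had 596, 484, 732 and 430 in CS and 525.9, 464 and 621 in SD. Neither gene separated the groups, with log2 fold changes of 0.06 ± 0.11 and -0.04 ± 0.17. The difference between f/f and WT in the response to SD was -0.99 ± 0.34 for Slc32a1 (adjusted p = 0.051) and 0.73 ± 0.25 for Erbb4 (adjusted p = 0.052). Neither passed the threshold in limma, which called 0 of 9 members (2 at an unadjusted p of 0.05, 0 by edgeR, 2 by DESeq2) against 15.1% of 13106 genes. Both were called without WT CS replicate 4, 5 or 6 or WT SD replicate 3, Slc32a1 also without WT SD replicate 6 and Erbb4 also without WT CS replicate 2 or f/f CS replicate 1 or 3. The values over these cases were -0.98 to -1.12 for Slc32a1 (adjusted p = 0.024 to 0.048) and 0.59 to 0.87 for Erbb4 (adjusted p = 0.036 to 0.048). Across all genes this difference had a Spearman rho of -0.76 with GC content, and with the trend on GC content and exon length removed it was -0.30 for Slc32a1 (adjusted p = 0.47) and 0.15 for Erbb4 (adjusted p = 0.49).

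In Mef2c-cKO mice, SD called 0 of 9 members (0 at an unadjusted p of 0.05, 0 by edgeR, 0 by DESeq2), against 0.0234% of 12810 genes. The widest differences were those of Reln (0.29 ± 0.12) and Gad1 (0.19 ± 0.16), both with adjusted p = 0.998. The interaction of genotype and SD called no member either, against 0.00778% of 12860 genes, with 2 members at an unadjusted p of 0.05, 0 by edgeR and 0 by DESeq2. These 2 were Reln, whose response in cKO exceeded that in f/f by 0.55 ± 0.19, and Pvalb, at -0.60 ± 0.26 (adjusted p = 0.59 and 0.63).

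The second question was how these genes differed between f/f and cKO mice. In SD, 8 of 9 members were called between f/f and cKO, 6 higher and 2 lower in cKO, against 15.1% of 12774 genes (9.1% higher and 5.99% lower). Of the 6, Dlx2 was below 1 CPM in f/f SD libraries and entered the test through cKO SD alone, where it was high. Its call is therefore not independent of the filter. All 9 separated the 3 f/f from the 3 cKO libraries, which held for 40.3% of genes. The median log2 fold change of the 9 was 0.48, and that of all genes 0.01. With the 4 groups of f/f and cKO in 1 fit, 4 members were called, namely Gad2, Pvalb, Dlx2 and Reln, and calls over all genes fell from 1927 to 1019.

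Pvalb had the largest fall, from 46.3, 48.5 and 47.6 rescaled CPM in f/f SD to 19.96, 18.6 and 18.2 in cKO SD. Every cKO library was below the lowest f/f library, with means of 47.5 ± 1.11 and 18.9 ± 0.93 (SD, n = 3 each). Its log2 fold change was -1.31 ± 0.07 (adjusted p = 2.8e-05). Lhx6, which acts upstream in the same interneurons, went from 8.42, 7.98 and 7.79 to 6.50, 6.23 and 6.23, a log2 fold change of -0.33 ± 0.09 (adjusted p = 0.043). That call was lost without any 1 of 5 libraries (all 3 of f/f SD and cKO SD replicates 5 and 7), at adjusted p of 0.089 to 0.15. It was also lost with the CPM as deposited (-0.26, adjusted p = 0.092) and with no filter on low values (adjusted p = 0.069).

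The GABA synthesis genes were higher in cKO SD. Gad2 had 124, 155 and 135 in f/f and 216, 298 and 213 in cKO (0.80 ± 0.14, adjusted p = 0.0077). Gad1 had 218, 260 and 227 against 324, 337 and 317 (0.48 ± 0.08, adjusted p = 0.0067). Slc32a1 had 24.7, 31.7 and 25.5 against 32.3, 37.98 and 37.1 (0.39 ± 0.11, adjusted p = 0.043), and its call was lost without f/f SD replicate 1 or 3 or cKO SD replicate 7 (0.33 to 0.36, adjusted p = 0.11 to 0.16), with the trend on GC content and exon length removed (0.21, adjusted p = 0.13) and under quantile normalization (0.36, adjusted p = 0.067). The homeobox genes rose further. Dlx1 went from 8.48, 8.93 and 9.26 to 23.9, 14.1 and 22.4 (1.10 ± 0.18, adjusted p = 0.0063), and Dlx2 from 0.65, 0.57 and 0.98 to 3.19, 2.09 and 2.72 (1.36 ± 0.19, adjusted p = 0.0036), where the f/f values rest on 21 to 53 reads. Reln had 135, 148 and 127 in f/f SD and 217, 230 and 248 in cKO SD (0.76 ± 0.08, adjusted p = 0.0011). Erbb4 separated the groups, at 525.9, 464 and 621 against 422, 350 and 453, and was not called (-0.39 ± 0.13, adjusted p = 0.069).

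These differences moved with the markers of the olfactory bulb, which holds many GABA neurons and reelin-producing projection neurons. The summed bulb markers were 3.75, 1.95 and 1.71 in f/f SD and 51.9, 22.1 and 56.4 in cKO SD. The 3 markers tested were called higher, but they passed the filter on low levels through cKO SD alone, where they were high. Their calls therefore add nothing to the sums. Genotype and bulb marker level therefore cannot be told apart in SD. Fitted over the 4 groups with the log2 bulb sum as a term, 0 of 9 members were called, where 4 were called without the term, and 120 genes were called in all against 1019. Gad1 and Dlx1 turned negative (-0.07 and -0.39, adjusted p = 0.91 and 0.47), Dlx2 went to 0.18 and Reln to 0.40, while Erbb4 went from -0.39 to -1.08 (adjusted p = 0.080). Gad2 (0.85, adjusted p = 0.11), Slc32a1 (0.44, adjusted p = 0.42), Pvalb (-1.18, adjusted p = 0.12) and Lhx6 (-0.35, adjusted p = 0.40) kept values near those without the term. With the striatal sum, of which Pde10a was the largest part, as a term instead, Gad2, Pvalb, Dlx2 and Reln were called. In the same comparison 5 of 11 excitatory neuron markers were called lower (list median -0.31), and 4 of 5 microglial and 2 of 7 astrocyte markers higher, and their part in the members' differences was not tested.

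**Figure D4:**
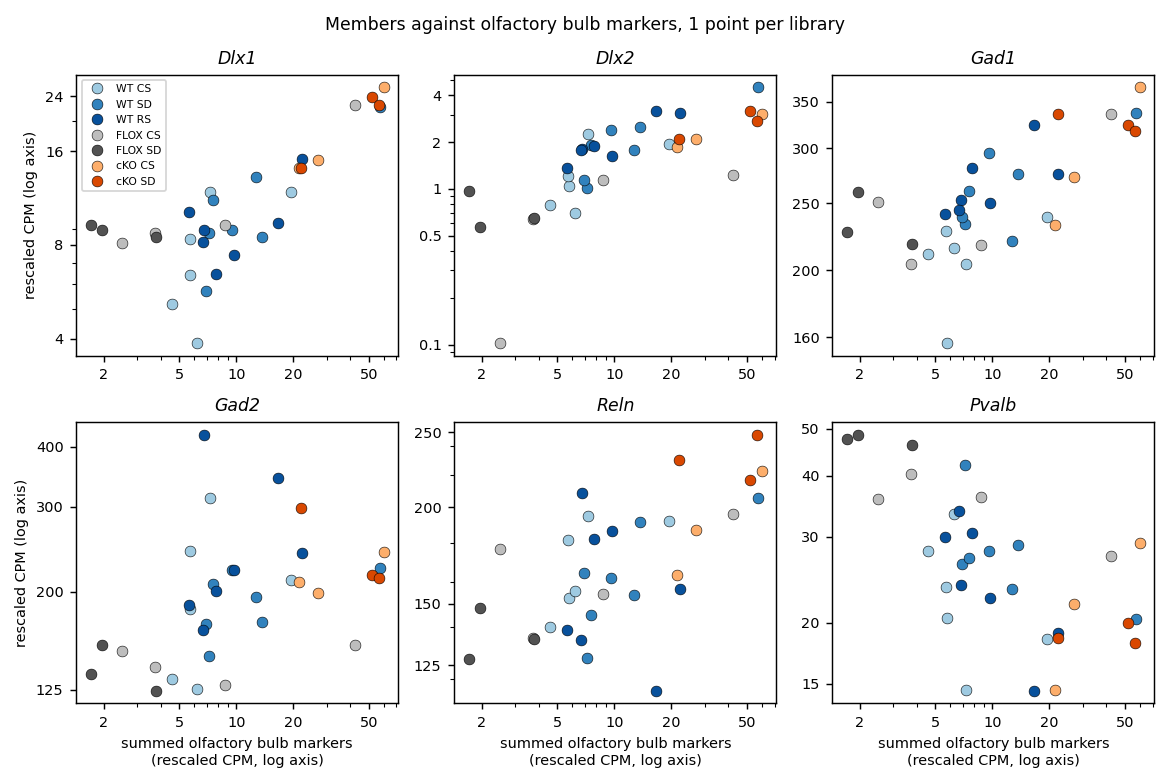
Level of 6 of the genes (rescaled CPM, log axis) against the summed level of 4 olfactory bulb projection neuron markers (rescaled CPM, log axis), 1 point for each of the 33 libraries, coloured by group (FLOX is f/f). Dlx1 is highest in the library with most marker signal in each genotype, f/f CS replicate 3 (22.4) among them, and the 3 f/f SD libraries lie at the low end.

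Relations within groups were computed over the 33 libraries after the group means were removed. Dlx1 had a Pearson's r of 0.78 (Spearman's rho 0.64) with the log2 bulb sum, with an adjusted permutation p of 0.00045 over 18 relations (0.0044 for rho). Its r was 0.71 without the 2 libraries whose sums, before group means were removed, lay farthest from the median. That choice kept f/f CS replicate 3 (42.4, against 2.51 to 8.70 in the rest of its group), whose part in these relations was not tested. The r of Dlx1 was 0.72 over the 20 WT libraries and 0.91 over the 13 others. Dlx2 had 0.78 (rho 0.73, adjusted permutation p = 0.00036 for both), and 0.72 without those 2 libraries. Gad1 had 0.64 (rho 0.50, adjusted permutation p = 0.0090 and 0.045) and 0.55 without them, and Pvalb had -0.44 (rho -0.39, adjusted permutation p = 0.044 and 0.093) and -0.47 without them. The r of Gad2 was 0.19, that of Slc32a1 0.18, of Lhx6 0.21, of Erbb4 0.31 and of Reln 0.40, none with an adjusted permutation p under 0.05. With the striatal sum, Gad1 had 0.55 (rho 0.56, adjusted permutation p = 0.026 and 0.019) and 0.40 without its 2 farthest libraries, and no other member passed. Values over WT and over floxed libraries were far apart for several members, and the difference was not tested. With the striatal sum, r over the 13 f/f and cKO libraries was 0.90 for Slc32a1, 0.71 for Pvalb and 0.63 for Lhx6, against 0.09, 0.04 and -0.36 over the 20 WT libraries. With the bulb sum, r was 0.70 for Erbb4 and -0.13 for Pvalb over the 13 libraries, against 0.07 and -0.63 in WT, while Dlx2 had 0.76 and 0.82 and Gad1 0.64 and 0.63.

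In CS, 1 of 9 members was called between f/f and cKO, Gad2, against 7.67% of 12681 genes. Gad2 had 139, 128, 155 and 151 rescaled CPM in f/f and 242, 198 and 209 in cKO, a log2 fold change of 0.59 ± 0.10 (adjusted p = 0.015). Each cKO library was above each f/f library, and the call was lost without f/f CS replicate 2 (0.54, adjusted p = 0.061). It was kept with the olfactory bulb sum as a term (0.62, adjusted p = 0.026) and with the striatal sum as a term (0.63, adjusted p = 0.0030), which makes Gad2 the member called in CS under both. Gad2, Lhx6 and Dlx2 separated the groups, which held for 26.9% of genes.

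The other members pointed the same way in CS as in SD without passing the test in the CS libraries alone. With the 4 groups of f/f and cKO in 1 fit, Pvalb (-0.71, adjusted p = 0.016), Lhx6 (-0.33, adjusted p = 0.049) and Dlx2 (1.24, adjusted p = 0.017) were called in CS beside Gad2, so that CS and SD each had 4 calls in place of 1 and 8. Calls over all genes moved the same way, to 2167 from 973 in CS and to 1019 from 1927 in SD. With the striatal sum as a term, Slc32a1 (0.43, adjusted p = 0.0047), Pvalb (-0.63, adjusted p = 0.0079) and Dlx2 (1.17, adjusted p = 0.0197) were called beside Gad2, and 2286 genes were called in all. Pvalb had 40.3, 36.3, 27.4 and 35.9 in f/f CS and 29.1, 21.8 and 14.5 in cKO CS (-0.71 ± 0.22, adjusted p = 0.076), with 1 cKO library above the lowest f/f library, and was called without cKO CS replicate 5 (-0.94, adjusted p = 0.037). Dlx2 had 0.64, 1.13, 1.23 and 0.10 against 3.04, 2.10 and 1.87 (1.24 ± 0.37, adjusted p = 0.069), and its lowest f/f value was 2 reads. It was below 1 CPM in f/f CS libraries and entered the test through cKO CS alone. Dlx1 had 8.74, 9.26, 22.4 and 8.09 against 25.6, 14.98 and 14.2 (0.65 ± 0.35, adjusted p = 0.25). The high f/f library was replicate 3, the one with high bulb markers, and without it Dlx1 was called (0.98, adjusted p = 0.0496). The bulb sums left in f/f CS were then 2.51 to 8.70, against 21.3 to 59.9 in cKO CS. Genotype and bulb marker level therefore cannot be told apart in that fit. With the bulb sum as a term over the 4 groups, Dlx1 had -0.12 (adjusted p = 0.695), Gad1 -0.08, Reln 0.02 and Dlx2 0.64. Slc32a1 (0.38), Pvalb (-0.65) and Lhx6 (-0.34) stayed near their values without it, and none of these was called. Erbb4 had 596, 484, 732 and 430 against 479, 401 and 296 (-0.51 ± 0.21, adjusted p = 0.15) and was called with the bulb sum as a term (-0.87, adjusted p = 0.011). Gad1, Slc32a1, Lhx6 and Reln had 0.21, 0.35, -0.33 and 0.21, with adjusted p of 0.16 to 0.53.

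Genes of the same pathways were taken from lists chosen with earlier results of these data known. Their counts stand beside shares of all genes called of 45.1% in WT SD, 17.5% in RS, and 7.67% (CS) and 15.1% (SD) between the genotypes. In WT SD, 3 of 8 genes of GABA handling, 6 of 20 class markers, 7 of 13 transcription factor genes and 5 of 9 partners were called, so that the first of these lists and the class markers were under that share. Of 8 genes for GABA reuptake, breakdown and precursor supply, 2 rose and 1 fell in WT SD. Those that rose were Slc6a13, a GABA transporter of the meninges and vessels (1.44 ± 0.27, adjusted p = 0.0017), and Glul, the glutamine synthetase of astrocytes (0.31 ± 0.09, adjusted p = 0.014). The list's median was 0.27, against 0.04 for all genes. Of 4 meningeal markers, 3 were called higher in the same comparison, and their part in the rise of Slc6a13 was not tested. In RS, 1 gene of the list rose and 1 fell, and the gene that rose was Abat, which encodes the GABA transaminase (0.33 ± 0.10, adjusted p = 0.045). Between f/f and cKO none of the 8 was called by limma, in CS (0 at an unadjusted p of 0.05) or SD (4 at an unadjusted p of 0.05), beside the higher Gad1 and Gad2 of cKO SD.

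Of the 21 interneuron class markers, 20 were tested. In WT SD 5 rose and 1 fell (median 0.22). The largest were Calb2, which encodes calretinin (1.01 ± 0.36, adjusted p = 0.032), Cort, which encodes cortistatin (0.84 ± 0.24, adjusted p = 0.013), and Kcnc2, a potassium channel of fast-spiking cells (-0.74 ± 0.11, adjusted p = 0.00058). In RS 3 rose and 1 fell, led by Tac1 (0.64 ± 0.18, adjusted p = 0.039), Kcnc2 (-0.64 ± 0.14, adjusted p = 0.033) and Nos1 (0.57 ± 0.18, adjusted p = 0.047). In cKO SD relative to f/f SD, 6 were higher and 4 lower (median 0.24, against 0.01 for all genes). Calb2 went from a mean of 4.21 to 32.6 rescaled CPM (2.73 ± 0.29, adjusted p = 0.0011), Nos1, the neuronal nitric oxide synthase, from 24.4 to 68.0 (1.46 ± 0.08, adjusted p = 2.6e-05) and Syt2, a synaptotagmin of parvalbumin terminals, from 64.5 to 23.95 (-1.41 ± 0.10, adjusted p = 0.00017). Named after their values were seen, the other 3 that were lower were Lamp5 (-1.15), Kcnc2 (-0.63) and Kcnc1 (-0.46). The rest of the 6 that were higher are not named in the text, so the names given lean to the lower side. In CS 1 of the class markers was higher in cKO, Nos1 (0.89 ± 0.23, adjusted p = 0.049), and 3 were lower, led by Syt2 (-0.96 ± 0.23, adjusted p = 0.041) and Kcnc2 (-0.67 ± 0.09, adjusted p = 0.0060). Calretinin cells are abundant in the olfactory bulb, whose summed markers were higher in cKO SD than in f/f SD.

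**Figure D5:**
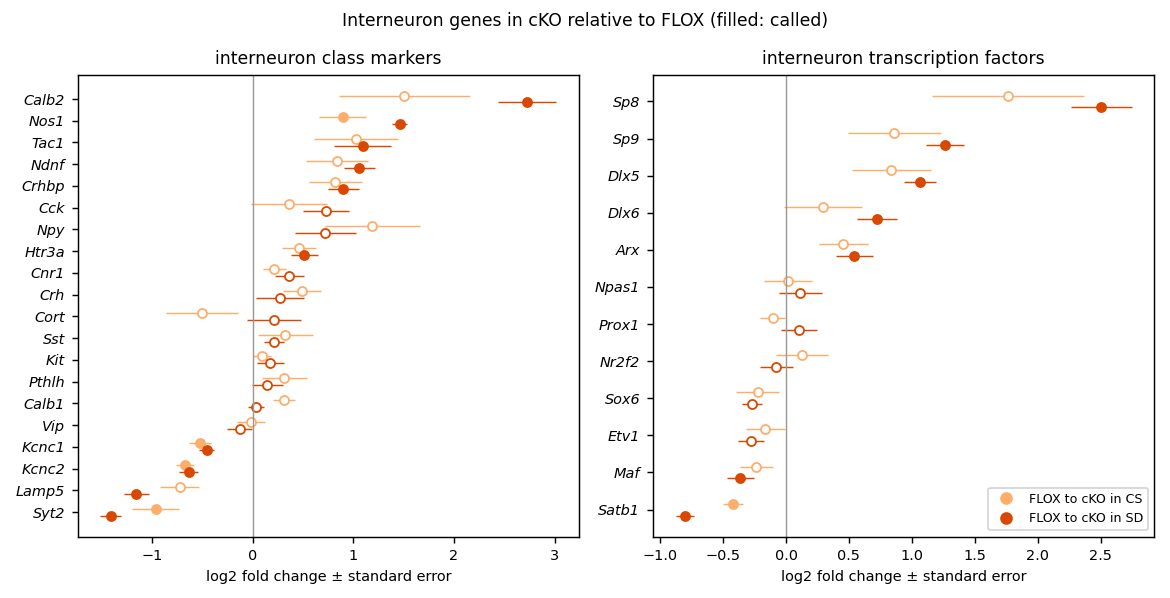
Log2 fold change with standard error of the reported interneuron class markers (left) and interneuron transcription factor genes (right) in cKO relative to f/f, in CS (light) and SD (dark), filled where called. Calb2 (2.73) and Sp8 (2.50) are highest and Syt2 (-1.41) lowest in SD.

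Of 13 interneuron transcription factor genes tested of 14, 4 rose and 3 fell in WT SD (median 0.41, against 0.04 for all genes). They were led by Sp8 (0.95 ± 0.33, adjusted p = 0.029) and Etv1 (-0.65 ± 0.16, adjusted p = 0.0058). In RS 4 rose and 1 fell, led by Dlx6 (0.70 ± 0.16, adjusted p = 0.033), Sox6 (-0.53 ± 0.13, adjusted p = 0.033) and Dlx5 (0.51 ± 0.14, adjusted p = 0.035). Dlx5 and Dlx6 are paralogs of Dlx1 and Dlx2. In cKO SD relative to f/f SD 5 were higher and 2 lower. Sp8, a factor of calretinin and olfactory bulb interneurons, rose by 2.50 ± 0.24 (adjusted p = 0.00068), Sp9 by 1.26 ± 0.15 (adjusted p = 0.0016) and Dlx5 by 1.07 ± 0.13 (adjusted p = 0.0018). Satb1, which acts after Lhx6 in the same lineage, was lower (-0.81 ± 0.07, adjusted p = 0.000495, named after its value was seen), and it was the 1 gene of this list called in CS (-0.42 ± 0.08, adjusted p = 0.018).

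Of 9 partners of reelin and ErbB4 tested of 10, WT SD raised 2 and lowered 3, led by the neuregulin genes Nrg3 (-0.98 ± 0.14, adjusted p = 0.00052) and Nrg1 (-0.96 ± 0.14, adjusted p = 0.00062), whose products bind ErbB4, and Erbb2, its co-receptor (0.66 ± 0.17, adjusted p = 0.0080). Erbb4 fell in the same comparison, and the other gene that rose was Hbegf, which encodes another ErbB4 ligand (0.35 ± 0.10, adjusted p = 0.014, named after its value was seen). The trend with gene span given above is over all genes, and its part in these changes was not tested. Nrg3 (-0.71 ± 0.18, adjusted p = 0.033) and Nrg1 (-0.69 ± 0.20, adjusted p = 0.039) were also the 2 called in RS. In cKO relative to f/f, Nrg1 was lower in CS (-1.10 ± 0.14, adjusted p = 0.0041) and SD (-0.69 ± 0.13, adjusted p = 0.010), with Nrg2 in CS (-0.76 ± 0.17, adjusted p = 0.031) and Nrg3 in SD (-0.42 ± 0.11, adjusted p = 0.034). Neither receptor nor adaptor gene of reelin was called between the genotypes.

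The genes whose levels were most like those of each member were found from 11570 genes over the 33 libraries, with group means removed. They are given as a description, since the libraries share depth, base composition and dissection. Erbb4 was closest to Grik2 (r = 0.95), Il1rapl1 (0.94) and Amy1 (0.94), of which Grik2 spans 694 kb and Il1rapl1 1375 kb. Dlx1 was closest to Nrip3 (0.89), Pax6 (0.87) and Zic1 (0.84). Pvalb was closest to Rassf3 (0.86), Myl4 (0.85) and Igfbp4 (0.82). Slc32a1 was closest to Ddit4 (0.85), Lrrtm1 (0.84) and Nat14 (0.84), and Gad1 to Inpp5j (0.83), Grm4 (0.79) and Pacsin2 (0.79). The leading gene was Gulp1 for Gad2 (0.84), Ror1 for Reln (0.84) and Atat1 for Lhx6 (0.82), and Dlx2 was below 1 CPM in some libraries and was not included. No member was among the 3 closest genes of another. Among the members, the strongest values were -0.63 between Gad2 and Pvalb and 0.56 between Gad2 and Erbb4, while Gad1 and Gad2 had 0.33.

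Across the 7 groups the highest mean was 1.56 times the lowest for Gad1, 1.69 times for Reln and 1.85 times for Gad2, against 2.95 times for Erbb4 and 3.64 times for Dlx2. These rankings are a description, since they set WT beside floxed mice, whose levels were not compared by a test. Gad1, Dlx1, Dlx2 and Reln were highest in cKO SD (326 ± 9.80, 20.2 ± 5.28, 2.67 ± 0.55 and 232 ± 15.5 rescaled CPM, SD, n = 3) and Gad2, Slc32a1 and Lhx6 in WT RS (255 ± 93.9, 41.9 ± 14.0 and 12.8 ± 2.41, n = 7). Pvalb was highest in f/f SD and lowest in cKO SD, and Erbb4 was highest in WT CS (1155 ± 343, n = 6) and lowest in cKO CS (392 ± 92.0, n = 3). The WT CS mean of Erbb4 includes replicate 2, at 1844, beside a group median of 1037. With the CPM as deposited, the highest mean of Gad2 was in cKO SD (267, against 244 in WT RS) and that of Slc32a1 in WT SD (42.01, against 41.6 in WT RS). The rescaled means of Gad2 in WT RS and cKO SD (243 ± 48.4), of Slc32a1 in WT RS and WT SD and of Lhx6 in WT RS and WT SD (12.1 ± 2.17) differed by less than their spread. For Gad1 the means of WT SD (266 ± 40.8) and WT RS (267 ± 29.3), next to each other in that order, differed by less than their spread, as did those of cKO CS (18.3 ± 6.39) and cKO SD for Dlx1.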

How the data were processed

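Frontal cortex RNA was sequenced by the authors (stranded poly-A libraries, paired ends), aligned to mm10 with STAR, counted with HTSeq over unique reads and deposited as CPM from edgeR. The annotation release and the strand setting of the counting are not given in the sources used here. Whole reads were recovered from the deposited CPM: 100% of 711645 values were whole multiples of what 1 read is worth in their library (tolerance 0.01). For each library, a median-of-ratios factor over 11570 genes with at least 1 CPM in all 33 libraries rescaled the CPM. Comparisons were fitted on log2(rescaled CPM + 0.5) with limma 3.58.1 in R 4.3.3 (eBayes with a trend), compared groups alone, for genes with at least 1 CPM in every library of a group. p-values were adjusted (Benjamini-Hochberg) over all genes tested. Marker relations used 100000 permutations within groups, two-sided. edgeR 4.0.16 and DESeq2 1.42.0 were run on the recovered reads as alternatives. The fits were tested on simulated data. Gene positions, GC content and lengths are from GENCODE (GRCm38), with 19467 symbols matched. Named from the pathway lists were the 3 called genes with the largest change per list and comparison, and 3 most alike genes per member. Results of some list genes are not reported here. The members and lists were chosen with earlier results of these data known. The labels do not name the animal behind each library, so p-values measure the spread between these libraries. No replicate pair was a duplicate. Same-numbered libraries did not deviate together in every pair (correlations of -0.73 to 0.66), and the numbers were taken as names.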

Additional observations from a re-analysis of the deposited data

Results flagged for a closer look

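In 36 sets of a member and a group of 4 to 7 libraries, 5 held a library whose gap to its neighbour was a large share of the group's range by Dixon's criterion, where chance gives about 1 in 20 sets. Erbb4 was 1844 rescaled CPM in WT CS replicate 2, next to 1093, and its log2 fold change in SD was -0.63 without that library, against -0.78. Dlx1 was 22.4 in f/f CS replicate 3, next to 9.26, and the fold change in cKO relative to f/f in CS was 0.98 without it, against 0.65. Dlx2 was 4.49 in WT SD replicate 9, next to 2.50, and its fold change in SD was 0.35 without it, against 0.52. These last 2 libraries had the highest olfactory bulb marker sums of their groups, 42.4 and 57.0. Pvalb was 42.1 in WT SD replicate 2, next to 28.8 (0.19 without it, against 0.29, not called in either). Slc32a1 was 30.3 in f/f CS replicate 4, next to 25.1, and the difference of the SD response between f/f and WT was -0.92 without it (adjusted p = 0.11), against -0.99.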

How the results depend on the processing

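In 1764 of 1869 recomputed fold changes of members, the side of the threshold was kept. Direction was checked only where a fit called the member, so uncalled values among these could change sign. Gad2 in WT SD, for example, ran from -0.20 to 0.26 over the settings. With the CPM as deposited, 7 members were called in WT SD (3 as reported), 2 between f/f and cKO in CS (1 as reported) and 3 in the difference of the SD response between f/f and WT (0 as reported). With DESeq2 the counts were 1 in f/f SD (0 as reported), 3 between the genotypes in CS and 2 in that difference, and at a minimum of 5 CPM 2 in that difference. With the trend on GC content and exon length removed, 1 was called in WT SD and 2 between the genotypes in CS, and with no filter on low values 1 in WT RS (2 as reported). Between the genotypes in SD, 7 were called with the CPM as deposited, 7 under quantile normalization and 6 with no filter (8 as reported). With all groups of WT, or of f/f and cKO, in 1 fit, 4 were called between the genotypes in CS and 4 in SD (8 as reported). Chosen after seeing the data, the olfactory bulb sum as a term gave 2 in CS and 0 in SD between the genotypes. The striatal sum gave 4 and 4, and leaving out the libraries highest in bulb markers gave 1 in WT RS. With the bulb sum, Gad1 and Dlx1 turned sign in SD (-0.068 and -0.39). Both also turned sign in CS (-0.075 and -0.12), where they were not called with or without the term. Without 1 library each, the counts ranged from 2 to 3 in WT SD, 0 to 3 in WT RS, 0 to 1 in f/f SD, 0 to 2 and 6 to 8 between the genotypes in CS and SD, and 0 to 2 in the difference between f/f and WT. The cause of these changes was not tested. A replicate block gave 0 in WT SD and 4 in WT RS, on numbers that do not pair the libraries. No paired analysis was possible between f/f and cKO because those groups share no replicate numbers. WT RS relative to SD, cKO SD relative to CS and the interaction of genotype and SD had 0 calls under all alternatives run. Calls over all genes changed by more than 1.5 times in several settings: WT SD had 287 with the block and 2549 with the GC trend removed against 5826, WT RS 0 to 4279 against 2232, f/f SD 0 to 590 against 5, genotypes in CS 171 to 2286 against 973, and genotypes in SD 120 (bulb sum as a term) to 1280 (minimum of 5 CPM) against 1927. They were 0 to 54 against 3 in WT RS relative to SD, 1 to 25 against 3 in cKO SD, 1 to 59 against 1 in the interaction and 0 to 3426 against 1983 in the difference between f/f and WT. Dlx2 rested on as few as 2 reads in a library, which limits its precision.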
